A study of Homo sapiens with 5 samples.

Results

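SR proteins, hnRNP proteins and the branch point factors of the U2 snRNP form the core of the machinery that selects exons. All protein-coding genes whose symbol begins with SRSF, HNRNP or SF3 were taken, together with PTBP1, PTBP2, PTBP3, TRA2A, TRA2B, U2AF1, U2AF2, RBFOX2, CELF1, KHDRBS1, SYNCRIP, SRRM1 and SRRM2, which gave 56 of the 13822 genes listed for RH4 cells. RH4 is an established alveolar rhabdomyosarcoma (ARMS) line. The cells received 30 nM of either a control siRNA (si-SCR, 3 libraries) or a siRNA against the back-splicing junction of the circular RNA made from VAMP3 (si-circVAMP3, 2 libraries). A medium change at 24 h lay midway between transfection and harvest. Stranded poly-A libraries were sequenced from biological replicates, and the comparison asks which mRNA levels differ upon circVAMP3 knock-down.

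SR proteins carry RNA recognition motifs and a domain rich in arginine and serine, and many of them bind exonic enhancers and favour the use of nearby splice sites. hnRNP proteins coat nascent transcripts, and several of them, PTBP1 among others, repress the exons they flank. The SF3A and SF3B subunits of the U2 snRNP contact the branch point region, while U2AF2 and U2AF1 bind the polypyrimidine tract and the AG at the 3′ splice site.

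Levels are given as FPKM, counted fragments scaled by the length of the gene and the depth of the library, so that genes can be compared per length. The fragments recovered from them numbered at least 26332931, 24946473 and 24835876 in the si-SCR libraries and 18552637 and 28704973 in the si-circVAMP3 libraries. A principal component holding 68.6% of the variance separated the groups, and on a component with 17.9% si-SCR replicate 3 lay at -12.07 while the other libraries lay between -2.13 and 8.86. Calls of the members and of the called genes named from further splicing lists were therefore also read without that library. Marker calls rest on all libraries. VAMP3 itself, whose linear mRNA is what a poly-A library reads, stood at 36.4, 35.4 and 37.4 FPKM in si-SCR and at 29.4 and 30.2 FPKM in si-circVAMP3. Differences are si-circVAMP3 minus si-SCR on log2(FPKM + 0.5), and a gene is called when its adjusted p over all genes tested is under 0.05. VAMP3 fell by 0.29 on that scale (SE 0.043, limma adjusted p = 0.00473), below every si-SCR library in both knock-down libraries.

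The siRNA is shown because its seed can also pair with other mRNAs. The listed strand joins 8 bases from the end of exon 4 (chr1:7778118-7778169, + strand, GRCh38) to 11 bases from the start of exon 3 (chr1:7777160-7777318, + strand) of VAMP3. In the listed strand the capitals mark the stretch that a seed of the complementary strand pairs with, and in the complementary strand they mark its bases 2 to 8.
si-circVAMP3, listed strand: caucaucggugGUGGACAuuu
si-circVAMP3, complementary strand: aUGUCCACcaccgaugaug

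Upon circVAMP3 knock-down, 11 of the 55 splicing factor genes tested rose and 5 fell (limma, adjusted p under 0.05), where 15.8% of all 11094 genes tested were called higher and 16.7% lower. The members' shares were 20% and 9.09%, and since whole-table calls were this frequent the counts are a description of the members and mark out nothing particular to them. HNRNPA3, an hnRNP of the A/B family, fell by 25.9%, and TRA2A and PTBP2 fell by 20.2% and 26.0%. SF3B2, a branch point factor, rose by 24.7%, with SF3A1, SF3A3 and SF3B4 of the same U2 snRNP also higher. No member passed the further cutoff of 0.58 on the absolute log2 difference, which 3.79% of all genes did: the members' differences ran from -0.43 to 0.31. With limma-voom on recovered fragments, an alternative chosen after seeing the data, they ran from -0.44 to 0.31.

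The members sat well above the typical gene, with a median of 55.1 FPKM against 7.03 FPKM over all genes tested. Their median standard error was 0.045 on the log2 scale against 0.068. The median difference was 0.02 over the members and 0.01 over all genes, and 43 of the 55 members differed by less than 0.2, as did 6867 of the 11094 genes. Group values did not overlap for 34 of the 55, or 61.8%, beside 59.8% of all genes. The summed level of the 56 genes was 3764, 3734 and 3804 FPKM in si-SCR and 3753 and 3846 FPKM in si-circVAMP3. These ranges overlap, and the pool as a whole held 1.32% to 1.36% of all FPKM in every library.

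**Figure D1:**
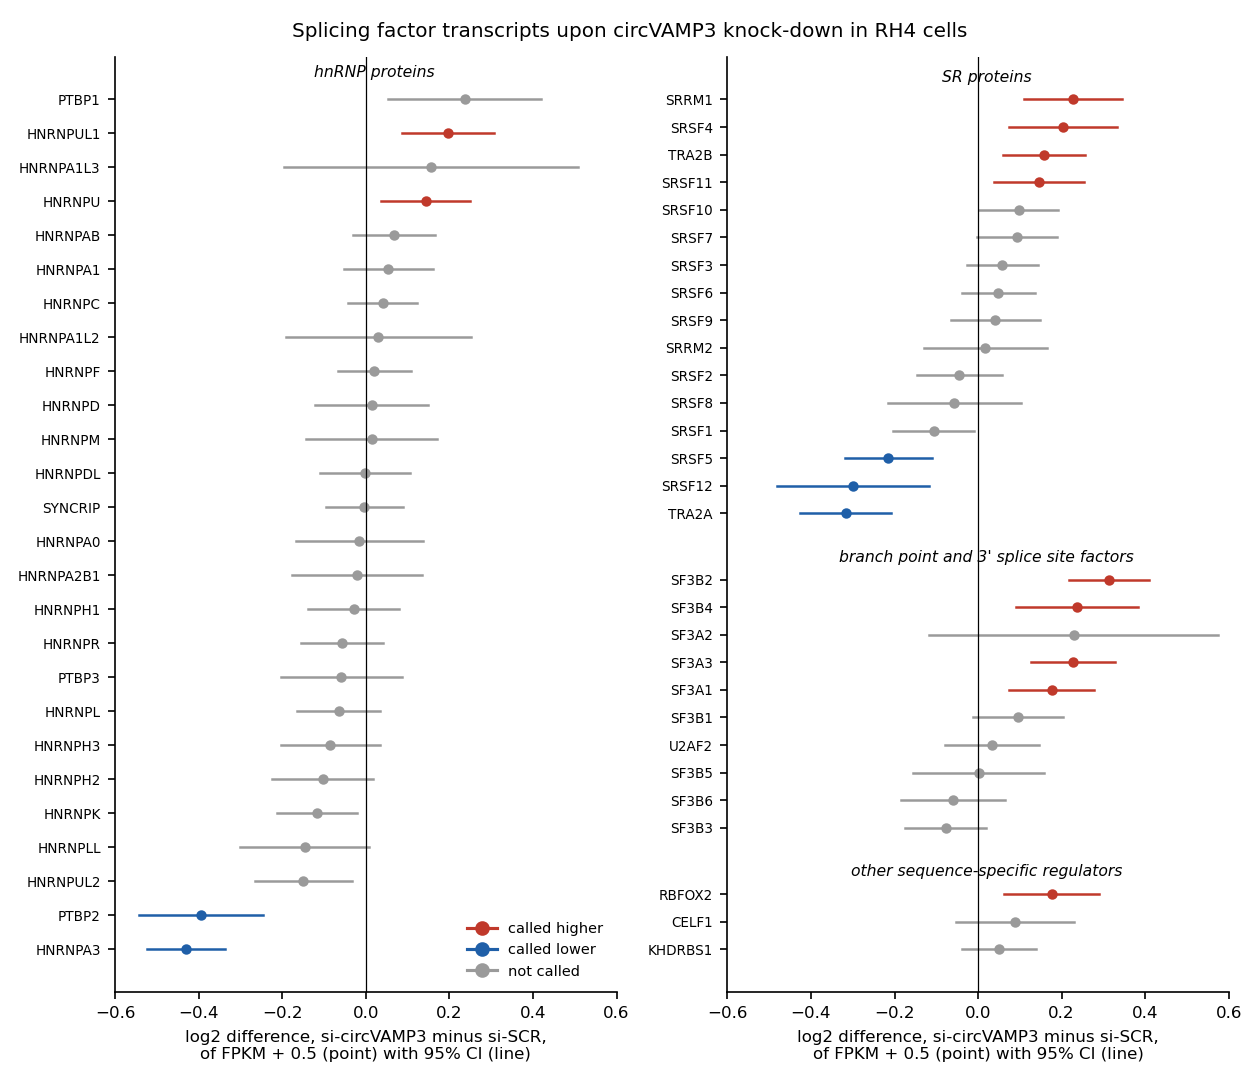
Log2 difference of each of the 55 tested splicing factor genes, si-circVAMP3 minus si-SCR, on FPKM + 0.5 (x axis, point) with its 95% confidence interval (line), by role; red, called higher; blue, called lower; grey, not called. HNRNPA3 and PTBP2 lie lowest at -0.43 and -0.39 (SF3B2 lies highest at 0.31), and most hnRNP genes lie near 0.

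Among the hnRNP proteins, 2 of 26 rose and 2 fell (7.69% each way), beside 15.8% and 16.7% of all genes. Their median difference was -0.01. HNRNPA3 (ENSG00000170144, chr2:177212694-177223959, + strand) stood at 139.9, 137 and 141 FPKM in the si-SCR libraries and at 101 and 105 FPKM in the si-circVAMP3 libraries. Both knock-down libraries lay below all controls, and the log2 difference was -0.43 (SE 0.039, adjusted p = 0.000846), the call with the smallest p among the members. Of the 100-base windows of its transcript, 12.2% also occur in other genes, mostly in the processed pseudogene HNRNPA3P6, which was listed at 1.39 to 2.01 FPKM, so part of its level is uncertain.

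PTBP2 is the neuronal paralog of the polypyrimidine tract binding protein PTBP1, which is known to keep PTBP2 low in many cells by promoting the skipping of a PTBP2 exon. Its levels were 5.73, 6.04 and 6.26 FPKM in si-SCR and 4.55 and 4.35 FPKM in si-circVAMP3. Both knock-down values were lower than any control (log2 difference -0.39, SE 0.062, adjusted p = 0.00529). PTBP1 measured 59.8, 58.5 and 51.0 FPKM in si-SCR and 64.0 and 69.0 FPKM in si-circVAMP3. Those groups do not overlap, but the difference of 0.24 (95% CI 0.05 to 0.42) missed the threshold at adjusted p = 0.0555. It passed with a filter at a mean of 5 FPKM (adjusted p = 0.0455), with limma-voom (adjusted p = 0.0352), without si-SCR replicate 1 (adjusted p = 0.0478) and without si-SCR replicate 3 (adjusted p = 0.0399), while over all alternatives its adjusted p reached 0.275. The ratio of PTBP2 to PTBP1, chosen after the values were seen and not tested, was 0.0958, 0.103 and 0.123 in si-SCR and 0.0712 and 0.0630 in si-circVAMP3. Gene-level values do not show which exons were used.

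HNRNPUL1 and HNRNPU, related proteins that bind RNA and chromatin, were the hnRNP genes called higher. HNRNPUL1 stood at 52.7, 53.5 and 49.99 FPKM in si-SCR and at 58.5 and 61.0 FPKM in si-circVAMP3 (log2 difference 0.20, adjusted p = 0.0201). HNRNPU had 36.7, 34.9 and 34.8 FPKM against 38.6 and 39.9 FPKM (0.14, adjusted p = 0.0487). The values of each gene were separate between groups, with a narrow gap for HNRNPU, whose call was lost in 8 of 13 alternatives (adjusted p up to 0.243).

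Of the 8 most abundant members, HNRNPA3 alone was called. HNRNPA1, a highly abundant repressor of exon inclusion, had the highest level of the 56, at 374, 375 and 391 FPKM in si-SCR and 384 and 405 FPKM in si-circVAMP3. Its groups overlap, and its difference of 0.05 (95% CI -0.05 to 0.16) was not called. It was 0.0921 without si-circVAMP3 replicate 1 and 0.0153 without replicate 2. Of its windows, 27.1% are found in other genes with HNRNPA1L3 first among them, so its level is uncertain. HNRNPK, a protein with KH domains that binds C-rich RNA, stood at 231, 227 and 239 FPKM in si-SCR and 213 and 215 FPKM in si-circVAMP3, with a difference of -0.12 that missed the threshold (adjusted p = 0.0641). HNRNPAB, HNRNPA2B1 and HNRNPC had means of 207, 196 and 168 FPKM and differences of 0.07, -0.02 and 0.04, none of them called, and 5.02% of the HNRNPC windows also occur in the pseudogene HNRNPCP2. The sign for HNRNPA2B1 turned without si-SCR replicate 1 (0.0108) and without si-circVAMP3 replicate 1 (0.0633), and HNRNPAB was at 0.0392 without si-circVAMP3 replicate 2. HNRNPUL2 (-0.15, adjusted p = 0.0556) also lay just outside the threshold, and limma-voom called it and HNRNPK lower, as did the filter at 5 FPKM for HNRNPUL2. Of the HNRNPUL2 windows, 44.8% lie in the overlapping gene HNRNPUL2-BSCL2, so its level is uncertain. The remaining 15 hnRNP genes were not called either. Among them HNRNPA1L3, which shares 36.1% of its windows with other genes, was called higher when si-SCR replicate 3 was left out. It had 5.98, 6.53 and 8.63 FPKM in si-SCR and 8.44 and 7.24 FPKM in si-circVAMP3.

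Among the 16 genes grouped as SR proteins, 4 (25%) rose and 3 (18.8%) fell, beside 15.8% and 16.7% of all genes. The group also holds SRRM1 and SRRM2, which are SR-related proteins, and its median difference was 0.04. TRA2A and TRA2B are the human homologs of the fly splicing regulator Transformer-2, and the pair moved in opposite directions. TRA2A had 21.1, 21.5 and 22.2 FPKM in si-SCR and 17.0 and 17.5 FPKM in si-circVAMP3 (log2 difference -0.32, SE 0.045, adjusted p = 0.00392). TRA2B had 33.3, 33.6 and 34.9 FPKM in si-SCR and 37.7 and 38.1 FPKM in si-circVAMP3 (0.16, SE 0.041, adjusted p = 0.0284). Neither pair of groups overlaps. The ratio of TRA2A to TRA2B, also chosen after the values were seen and not tested, was 0.631, 0.641 and 0.636 in si-SCR and 0.449 and 0.459 in si-circVAMP3. For a single ratio the smallest exact permutation p that 3 libraries against 2 can give is 0.2, where the two-sided p is 2 times the one-sided p.

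**Figure D2:**
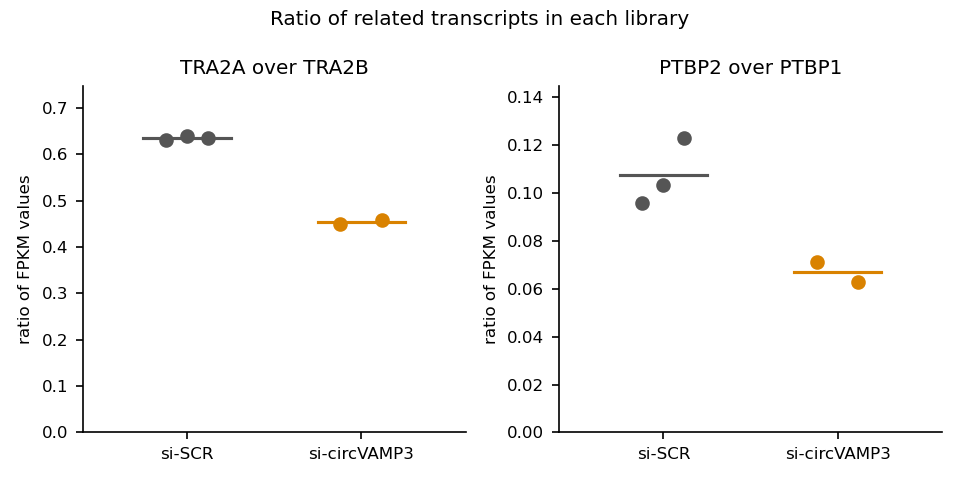
Ratio of FPKM values of TRA2A to TRA2B (left) and of PTBP2 to PTBP1 (right) in each library (points), with group means (lines). Both si-circVAMP3 libraries lie below the 3 si-SCR libraries in each panel, at 0.449 and 0.459 for the TRA2 pair.

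SRSF5 and SRSF12 were the other SR protein genes that fell. SRSF5, a classical SR protein, had 35.4, 34.2 and 35.7 FPKM in si-SCR and 29.5 and 30.8 FPKM in si-circVAMP3 (-0.22, SE 0.043, adjusted p = 0.0122). SRSF12 was the lowest SR protein in level, with 2.17, 2.39 and 2.44 FPKM against 1.82 and 1.78 FPKM (-0.30, SE 0.076, adjusted p = 0.0260), from as few as 153 fragments in a library. Both genes lay lower in every knock-down library than in any control. The SRSF12 call was lost with the replicate block (adjusted p = 0.0677) and without si-SCR replicate 2 (adjusted p = 0.0883), as well as without either knock-down library.

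SRRM1, SRSF4 and SRSF11 rose. SRRM1, a splicing coactivator, had 14.6, 15.6 and 14.6 FPKM in si-SCR and 17.5 and 17.7 FPKM in si-circVAMP3 (0.23, adjusted p = 0.0153), though 10.5% of its windows occur in other genes. SRSF4 had 14.4, 13.8 and 13.4 FPKM against 15.5 and 16.6 FPKM (0.20, adjusted p = 0.0301). SRSF11 had 23.0, 22.6 and 23.2 FPKM against 24.6 and 26.2 FPKM (0.15, adjusted p = 0.0491). The groups of all 3 genes are separate, and the SRSF11 call, at the edge of the threshold, was lost in 8 of 13 alternatives (adjusted p up to 0.276). The other 9 SR genes were not called. SRSF2, the most abundant of them with a mean of 125 FPKM, had a difference of -0.04, which was -0.0276 without si-SCR replicate 1, -0.0107 without si-circVAMP3 replicate 1 and -0.0790 without si-circVAMP3 replicate 2. SRSF1 stood at 49.6, 48.3 and 50.7 FPKM in si-SCR and 46.4 and 45.6 FPKM in si-circVAMP3 (-0.11, adjusted p = 0.0881). Of the SRSF1 windows, 26.7% lie in the overlapping gene ENSG00000266086, so its level is uncertain.

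Of the 10 tested branch point and 3′ splice site factors, 4 (40%) rose and none was lower, beside 15.8% and 16.7% of all genes. None was lower at an unadjusted p under 0.05 or by limma-voom either. With 10 genes the count is a description of these members. The calls of SF3A1 and SF3B4 were lost with the replicate block and without si-SCR replicate 1. The median difference of the 10 tested genes was 0.14. SF3B2 (ENSG00000087365, chr11:66050729-66069308, + strand), a subunit of SF3B that crosslinks near the branch point, had 35.3, 35.9 and 34.4 FPKM in si-SCR and 43.5 and 44.3 FPKM in si-circVAMP3 (0.31, SE 0.040, adjusted p = 0.00264). SF3A3 had 74.9, 74.9 and 79.3 FPKM against 89.1 and 89.8 FPKM (0.23, adjusted p = 0.00911). Both genes stood clear of their controls in each knock-down library.

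SF3A1 had 28.1, 28.7 and 27.9 FPKM in si-SCR and 32.8 and 31.3 FPKM in si-circVAMP3 (0.18, adjusted p = 0.0219). SF3B4 had 69.9, 77.6 and 69.1 FPKM against 87.4 and 82.9 FPKM (0.24, adjusted p = 0.0272). SF3A1 and SF3A3 are subunits of SF3A and SF3B4 of SF3B, and their groups do not overlap. The other 5 genes with an SF3A or SF3B symbol gave no call. SF3A2 ran from 14.6 to 20.6 FPKM in si-SCR and measured 19.2 and 22.9 FPKM in si-circVAMP3, so its groups overlap and its difference of 0.23 (95% CI -0.12 to 0.57) was not called. It was 0.09 without si-SCR replicate 3 and with the replicate block, 0.35 without si-circVAMP3 replicate 1 and 0.10 without si-circVAMP3 replicate 2. SF3B1, the large SF3B subunit, had a difference of 0.10, SF3B3 of -0.08, SF3B6 of -0.06 and SF3B5, at a mean of 229.8 FPKM, of 0.00. The sign for SF3B5 turned after rescaling (-0.0041), with limma-voom (-0.0065), without si-SCR replicate 1 (-0.0597) and without si-circVAMP3 replicate 1 (-0.0207). U2AF2 had 65.5, 64.3 and 60.6 FPKM in si-SCR and 66.0 and 64.0 FPKM in si-circVAMP3 (0.03, not called).

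U2AF1 was not tested, since its mean lay under 1 FPKM. It was listed at 0.297, 0.292 and 0.281 FPKM in si-SCR and at 0.296 and 0.325 FPKM in si-circVAMP3. Of its transcript windows, 98.6% also occur in other gene models, among them a copy that GENCODE annotates as an artifact, so this value cannot be read as the level of U2AF1 mRNA.

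Of the 3 other sequence-specific regulators, RBFOX2 rose. RBFOX2, a regulator of muscle and neuronal exons, had 22.2, 22.3 and 23.6 FPKM in si-SCR and 26.1 and 25.3 FPKM in si-circVAMP3 (0.18, adjusted p = 0.0313). Its groups are separate. CELF1 (0.09) and KHDRBS1, also called Sam68 (0.05), were not called.

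**Figure D3:**
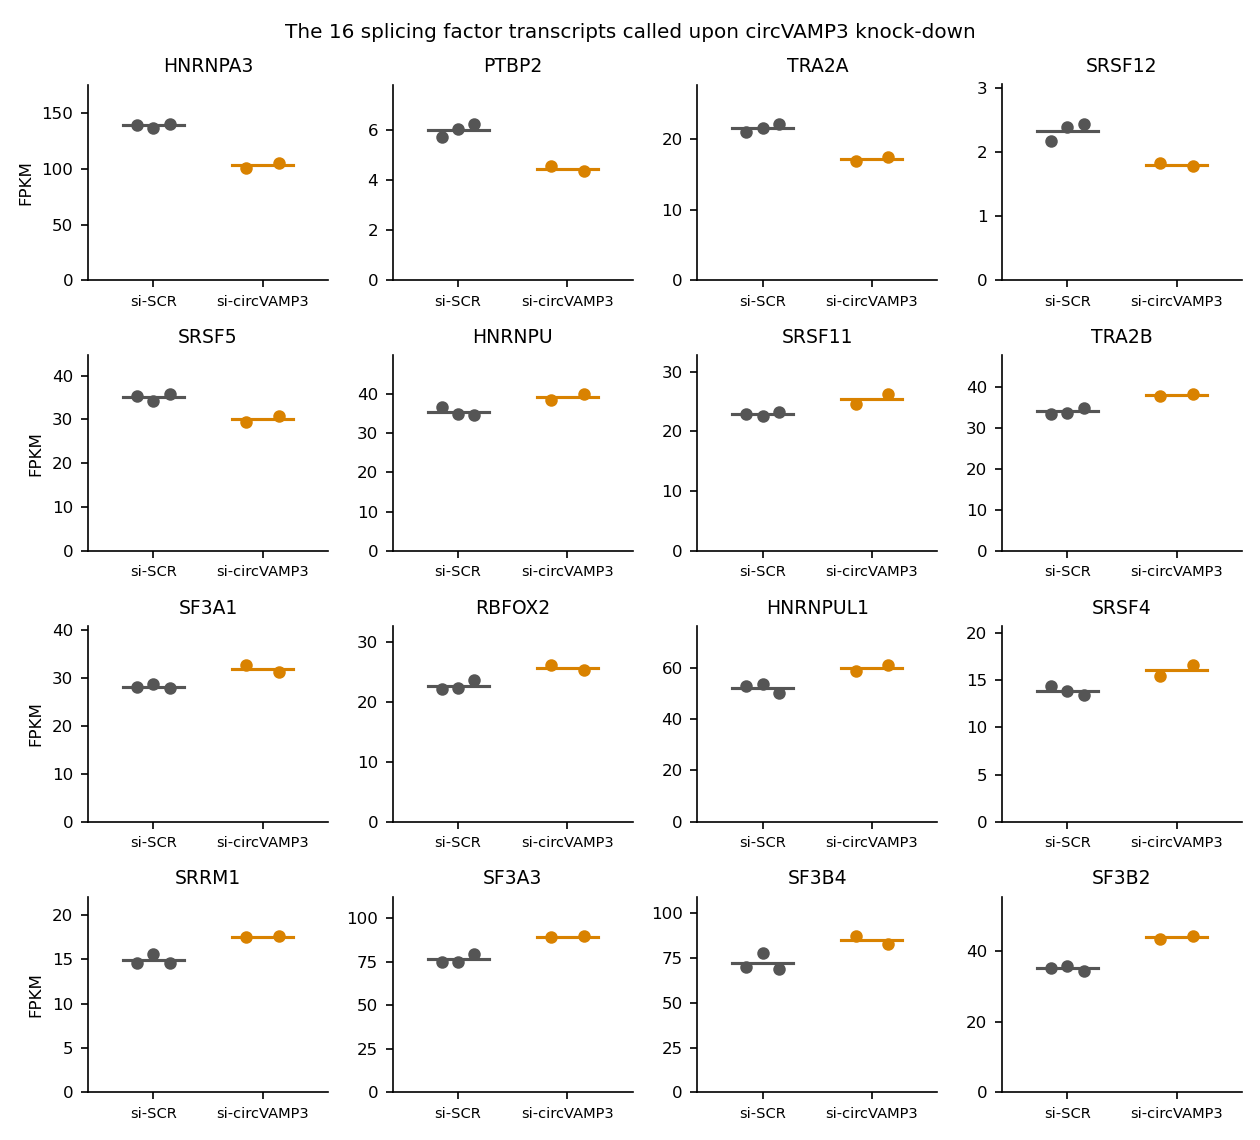
FPKM of the 16 called splicing factor genes in each library (points; 3 si-SCR in grey, 2 si-circVAMP3 in orange) with group means (lines), every y axis starting at 0 and having its own scale. Groups do not overlap in any panel, but the gap is small for HNRNPU and SRSF11 and wide for HNRNPA3.

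The calls differed in how far they rested on single libraries. HNRNPA3, SF3B2 and TRA2A were called in all 13 alternatives. HNRNPUL1, SF3A3, SRRM1 and SRSF5 lost the call only without either si-circVAMP3 library, with adjusted p up to 0.137, 0.0726, 0.0973 and 0.0965 in that order. PTBP2 lost it only without si-circVAMP3 replicate 2 (adjusted p = 0.0524). The other 8 also lost it without either si-circVAMP3 library and in further alternatives. RBFOX2, SF3A1, TRA2B and SRSF11 lost it without si-SCR replicate 1 or 2 (adjusted p up to 0.175, 0.15, 0.148 and 0.276 over the alternatives), and SF3B4 without si-SCR replicate 1 (up to 0.166). SRSF4 and SRSF12 lost it without si-SCR replicate 2 (up to 0.19 and 0.135), and HNRNPU without si-SCR replicate 2 or 3 (up to 0.243). A replicate block also ended the calls of SF3A1 (adjusted p = 0.0552), SF3B4 (0.0647), SRSF4 (0.0721), SRSF12 (0.0677), SRSF11 (0.0783) and HNRNPU (0.113). Without the intensity trend RBFOX2 (adjusted p = 0.0544), TRA2B (0.0584), SRSF11 (0.0818) and HNRNPU (0.0880) were not called. SRSF11 and HNRNPU also lost the call with no filter on low values (0.0517 and 0.0507) and after rescaling (0.0516 and 0.0564). Leaving out si-SCR replicate 3 gave 12 members higher and 5 lower, replicate 1 gave 7 and 5, and replicate 2 gave 5 and 4. Without si-circVAMP3 replicate 1, 1 member was higher and 3 lower, and without replicate 2, 1 and 2, where the lone knock-down library was assumed to vary like the controls. Over all genes these last 2 omissions gave 1356 and 1252 calls and leaving out si-SCR replicate 2 gave 2140, where all libraries together gave 3606. No member called in the full data changed direction in any alternative.

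The siRNA seed site GTGGACA was found in the 3′ UTR of 3 of the 55 tested members (5.45%), beside 11.3% of 10136 tested genes with a 3′ UTR. Of these genes, 1711 were called lower, with a share of 23.7%, and 1698 higher, with 5.42%. Among the members called lower it was 0 of 5. The members that hold it are HNRNPA2B1, HNRNPR and TRA2B, each shown with the site in capitals and GRCh38 coordinates of the minus strand.
HNRNPA2B1 (chr7:26189958-26189987): agaagagcattGTGGACAttattggctgtc
HNRNPR (chr1:23307016-23307045): tccattattatGTGGACAattattatgtgg
TRA2B (chr3:185914747-185914776): atttattagcaGTGGACAcgcctccaatat
Of these, TRA2B rose and the other 2 were not called. The same 7 bases occurred in the coding sequence of 9 tested members (16.4%) and of 21.5% of the 10136 genes. Among the 1711 of them called lower the share was 35.9% and among the 1698 called higher 12.4%. It was 1 of 5 members called lower and 1 of 11 called higher. These 9 are HNRNPA3, called lower, SRRM1, called higher, and the uncalled HNRNPA1, HNRNPC, HNRNPL, SF3B3, SRSF2, SRSF8 and U2AF2. A match of 7 bases is a description of the sequence, and its part in any difference was not tested.

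Other genes of splicing and RNA decay were read from further lists. Their counts, here and in the next paragraph, stand beside 15.8% higher and 16.7% lower over all genes tested. They describe the lists only. Of 33 genes on a list headed core snRNP proteins, 9 (27.3%) rose and 4 (12.1%) fell. That list also holds spliceosome proteins outside the core snRNPs, such as PRPF19 and DHX15. PRPF4 and PRPF3, partners in the U4/U6 snRNP, had log2 differences of 0.50 and 0.48, and SNRPB, a core Sm protein, of 0.44. PRPF4 stood at 32.6, 33.2 and 32.0 FPKM in si-SCR and at 47.1 and 45.6 FPKM in si-circVAMP3 (adjusted p = 0.000640). SNRPN, SNRPG and SNRNP25 fell with differences of -0.82, -0.50 and -0.24. SNRPN (24.98, 28.7 and 25.7 FPKM against 14.6 and 14.9 FPKM) shares 60.3% of its windows with overlapping genes, among them SNURF, and cannot be separated from them. Of 22 SR-related and exon junction proteins, 4 (18.2%) rose and 1 (4.5%) fell. The 3 with the smallest p among the risers, RNPS1, ACIN1 and PNN (0.23, 0.18 and 0.18), are known partners in protein complexes that join the exon junction complex. MAGOH, a core subunit, fell by 0.41 on the log2 scale. MAGOHB (0.13), EIF4A3 (0.10), RBM8A (0.04) and CASC3 (-0.13) of the same list were not called. SNRPB, SNRPG, RNPS1 and RBM8A share 5.60%, 6.06%, 8.48% and 5.01% of their windows with other genes, so part of their levels is uncertain. The calls of RNPS1, ACIN1, PNN and SNRNP25 were lost without either si-circVAMP3 library (adjusted p from 0.0510 to 0.101), and those of ACIN1 and PNN also without si-SCR replicate 2 (0.0556 and 0.0569).

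Of 27 tested other splicing regulators, 0 rose by limma and 5 (18.5%) fell, beside 15.8% higher and 16.7% lower over all genes. The share that fell thus lay near that of all genes. At an unadjusted p under 0.05, 2 were higher, and limma-voom called 1 higher. Differences ran from -0.65 to 0.37, the highest for RBM38, which was not called (limma adjusted p = 0.0677) though its groups did not overlap. The 3 called genes with the smallest p were QKI (-0.38), RBM24 (-0.65) and MBNL1 (-0.46), regulators of muscle splicing. Their levels in the si-circVAMP3 libraries were 22.2 and 22.1, 12.4 and 13.2, and 9.86 and 9.58 FPKM in that order, all under the si-SCR libraries. Of 10 nonsense-mediated decay factors, UPF3B rose (0.22) and 4 fell, or 10% and 40% beside 15.8% and 16.7% of all genes. With 10 genes these counts are a description of the list. The falls were led by SMG5 (-0.35), UPF2 (-0.29) and SMG6 (-0.34). The UPF3B call was lost without si-circVAMP3 replicate 1 (adjusted p = 0.0510) or 2 (0.0854), the UPF2 call without replicate 1 (0.0607) and the SMG6 call without replicate 2 (0.0857). Among 9 SR protein kinases and importin, SRPK1, a kinase of SR proteins, rose (0.16) and TNPO3, which imports SR proteins, fell (-0.17), and both calls were lost without either si-circVAMP3 library (adjusted p from 0.0815 to 0.225), without si-SCR replicate 1 (0.0790 and 0.0586) and without si-SCR replicate 2 (0.109 and 0.0934). The TNPO3 call was also lost without si-SCR replicate 3 (0.0515). Both were lost with the replicate block (0.0649 and 0.0747) and without the intensity trend (0.0633 and 0.0619).

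**Figure D4:**
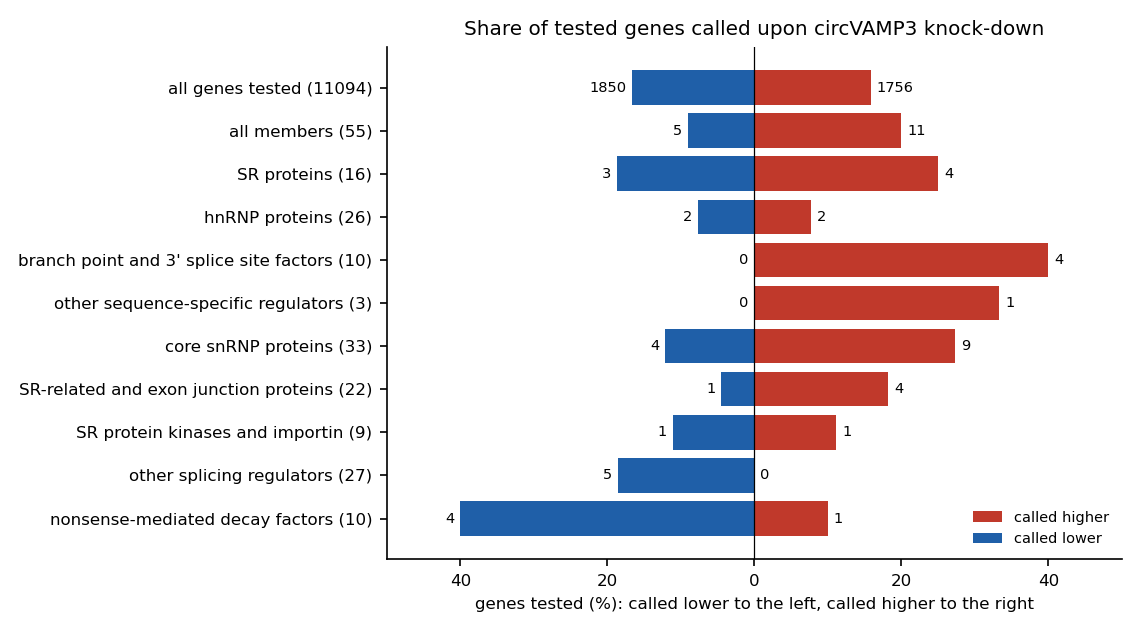
Share of tested genes called higher (red, right) and lower (blue, left) in all genes, in the splicing factors and their roles, and in further splicing and decay lists, with the number called at each bar and the number tested in brackets. The members' bars (20% higher, 9.09% lower) stand beside 15.8% and 16.7% for all genes.

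The RH4 identity was read from marker lists, whose calls stand beside 15.8% higher and 16.7% lower over all genes tested. The 8 rhabdomyosarcoma and myoblast markers all had a mean above 1 FPKM, and their summed level was 1082, 1069 and 926 FPKM in si-SCR and 875 and 884 FPKM in si-circVAMP3, with DES the most abundant. Of the 8, MYOG (-0.76) and CHRND (-0.31) fell and 0 rose, also 0 at an unadjusted p under 0.05 and by limma-voom. Fibroblast, epithelial and blood or endothelial markers with a row (3, 1 and 1 genes) stayed under 1 FPKM in mean, led by PDGFRA, KRT8 and PECAM1, with summed levels of 1.57 to 1.87, 0.215 to 0.651 and 0.0777 to 0.153 FPKM over the 5 libraries. The KRT8 level was higher in both si-circVAMP3 libraries (0.651 and 0.5803 FPKM) than in si-SCR (0.316, 0.215 and 0.256 FPKM) and was not tested. The other genes of these lists were not analysed here. Of 8 proliferation markers, PLK1 (-0.66) and MKI67 (-0.35) fell and PCNA (0.18) rose, with sums of 755, 740 and 753 FPKM in si-SCR and 737 and 721 FPKM in si-circVAMP3 led by CCNB1. Of the interferon-stimulated genes, 5 had a row and 2 were tested, of which IFI44 rose (0.63), and the sum was 5.60, 6.10 and 3.99 FPKM in si-SCR and 8.90 and 7.73 FPKM in si-circVAMP3. The part of these shifts in the splicing factor differences was not tested, and in bulk libraries fewer cells of a kind and less RNA per cell cannot be told apart.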

How the data were processed

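Stranded poly-A RNA of RH4 cells was measured in 5 libraries. The deposited values are FPKM, made by the authors with STAR 2.5.2b, strand-specific HTSeq counts, removal of low genes and the rpkm function of edgeR. GENCODE 44 gave symbols for 13783 of 13822 rows. Of 61 annotated genes that meet the member rule, 5 were not analysed here, and 15 pseudogene rows were left out. Genes with a mean of at least 1 FPKM (11094) were tested two-sided on log2(FPKM + 0.5) with limma 3.58.1 (intensity trend, group only; R 4.3.3) and Benjamini-Hochberg adjustment over all of them; the method was tested on simulated data. Python 3.11.15, pandas 2.3.3, numpy 2.4.6 and matplotlib 3.10.9 made tables and plots. Whole fragments were recovered from the FPKM of 100% of genes (relative tolerance 1e-09) for depth and limma-voom, an alternative added after seeing the data. A whole factor shared by all libraries of a gene is lost in this step. It was restored for 341 genes from their annotated length, which matched the shared library size without it for 9164; for the others a lost factor was not tested, so fragment totals are lower bounds. Shared windows are 100-base stretches of a transcript found in another gene. Named by rule were VAMP3, each called member, the 8 members highest in level and the 4 with the largest difference each way. Untested members and up to 3 called genes per further splicing list and direction were also named by rule. Other members, other genes of these lists and the markers were named after their values were seen. Members and lists were chosen with earlier results of these data known. Alternatives changed the pseudocount, filter, scaling and variance trend, added a replicate block or left out each library.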

Additional observations from a re-analysis of the deposited data

How the results depend on the processing

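VAMP3 kept its direction and its call in every alternative (-0.27 to -0.31). The 16 called members kept their direction throughout, and the call held in 113 of 127 values under other settings and in 42 of 80 with 1 library left out. Members called higher were 7 instead of 11 without the intensity trend, and the cause was not tested. With the replicate block they were 6. In the block si-SCR replicate 3 has no partner, so its differences equal those without that library (VAMP3 -0.2659 and HNRNPA3 -0.4231 in both). The block also fits a level for each replicate number, which leaves less data to estimate the spread. How far this lowered the count was not tested. Leaving out 1 library gave 1 to 12 members called higher, 2 to 5 called lower and 1252 to 3932 calls over all genes, the fewest over all genes without si-circVAMP3 replicate 2; the cause was not tested. The replicate numbers 1 and 2 are shared by the groups, and deviations of same-numbered libraries correlated at -0.17 and -0.0386. With 2 knock-down libraries the unlike-numbered pairs mirror these values (0.17 and 0.0386), so they cannot decide whether a number marks a shared day or batch. No label gives one, and no pairing was assumed. The block gave 4 members lower and 3324 calls over all genes. Limma-voom, chosen after seeing the data, called 12 members higher and 7 lower. Of the uncalled genes followed through the alternatives, HNRNPA2B1 and SF3B5 changed sign, while HNRNPA1, HNRNPC and SRSF2 kept theirs. HNRNPA2B1 ran from -0.107 to 0.0633 with 1 library left out and was 0.0108 without si-SCR replicate 1. SF3B5 ran from -0.0597 to 0.0416 with 1 library left out, including -0.0207 without si-circVAMP3 replicate 1, and was -0.0041 after rescaling and -0.0065 with limma-voom. The cause was not tested. Libraries of at least 18552637 to 28704973 fragments gave as few as 101 fragments for HNRNPA1L2 and 153 for SRSF12, which limits the precision of their values.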

Other observations

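Among the 15 pseudogene rows of the same families, HNRNPA1P10 had the highest level, at 8.18, 7.61 and 11.5 FPKM in si-SCR and 8.24 and 9.13 FPKM in si-circVAMP3. HNRNPA3P5 was listed at 3.74, 2.21 and 3.95 FPKM in si-SCR and at 1.94 and 2.25 FPKM in si-circVAMP3, and its groups overlap. HNRNPA3P6 lay between 1.39 and 2.01 FPKM in every library.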
